A study of Mus musculus with 232 samples.

Results

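Of 24185 cells from the mouse dentate gyrus, a part of the hippocampus where granule neurons are still added after birth, 543 carried the authors' cluster name Endothelial, and these cells are described here. They were taken by that name alone, at every age, from single-cell counts of unique molecular identifiers (UMIs, tags that mark single captured RNA molecules). E16.5 gave 33 of the cells, P0 17, P5 59, P18 89, P19 95, P23 120, P120 1 and P132 129. E16.5, P0 and P5, called perinatal here, came from the CD-1 strain with the sex given as unknown. The ages called juvenile were P18 (CD-1, males), P19 (C57Bl/6, females) and P23 (CD-1, males). P120 and P132 were pools of males and females of an hGFAP-GFP line, in which the human GFAP promoter, active in astrocytes and radial glia, drives a green fluorescent protein, and only GFP-positive cells were collected from them. Every age is a pool of animals and counts as 1 sample, so p-values measure the spread between ages. Tissue was microdissected from vibratome sections and dissociated with papain at each of them. The labels name no treatment and no targeted gene.

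Endothelial cells line blood vessels. In the brain they are sealed by tight junctions and carry transporters that set what crosses from blood to tissue, the blood-brain barrier, which Wnt signals through beta-catenin help to induce. Mural cells lie on the outside of the same vessels: pericytes on capillaries, and smooth muscle cells, which contract, on arteries and arterioles. The authors' names list no mural cluster, and VLMC is a usual name for fibroblasts of vessels and meninges.

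The median Endothelial cell held 7538 UMIs at E16.5, 7544 at P0, 8000 at P5, 2188 at P18, 2141 at P19, 3855 at P23 and 1796 at P132. Perinatal cells of the cluster thus held more UMIs than juvenile ones, while over the cells of all clusters the medians were 4856 to 6044 and 2184 to 4974, which overlap. The cells of an age summed to 138048 to 582362 UMIs. No cell barcode of the cluster occurred in more than 1 library. P0 and P18 libraries share the first part of their names, as do those of P5 and P23, so each of these pairs joins a perinatal with a juvenile age.

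Cldn5, Flt1 and Pecam1, the markers given for the cluster, were highest in it, and genes of mural cells stood out beside them. Levels are given as CPM, a gene's share of the cluster's summed UMIs times 1e+06. Cldn5, the main tight junction claudin of brain endothelium, stood at 5171 CPM, 176 times its level in the next cluster, NFOL, at 29.3 CPM. Flt1, a receptor for vascular endothelial growth factor (VEGF), stood at 1193 CPM, 111 times the next cluster, and Pecam1, an adhesion molecule of endothelial contacts, at 316 CPM, 31.5 times. All 25 genes of an endothelial list (among them Cdh5, Tek, Kdr and Ptprb) were higher here than in any of the other 23 clusters. So were 15 of 20 genes of a mural list. The 5 exceptions were Cspg4, highest in OPC, Crip1, highest in Ependymal, and Vtn, Tpm2 and Anpep. Vtn, which pericytes and fibroblasts express, read 628 CPM here and 2489 in VLMC. These levels describe the cluster and carry no test, because the authors formed it from the same counts.

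Ranked by the ratio to the highest other cluster, the leading genes at 50 CPM or more were Foxf1, Cldn5, Ly6c1, Adgrf5, Robo4, Kcnj8, Higd1b, Adgrl4, Gm694 and Flt1. Foxf1, a forkhead transcription factor, had 52.5 CPM, and the next cluster held 1 UMI of it. Ly6c1, a surface protein of endothelium and some leukocytes, had 1301 CPM at a ratio of 158. Adgrf5 and Adgrl4, adhesion receptors of endothelium, had 396 and 421 CPM, and Robo4, an endothelial guidance receptor, 88.1 CPM. Kcnj8, a potassium channel subunit, at 173 CPM and a ratio of 129, and Higd1b, at 878 CPM and a ratio of 123, are pericyte genes. Thus the 10 genes that set the cluster apart by this ratio included genes of both vessel layers. Of the 3227 genes at 50 CPM or more, 75 had a ratio of 10 or more.

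**Figure D1:**
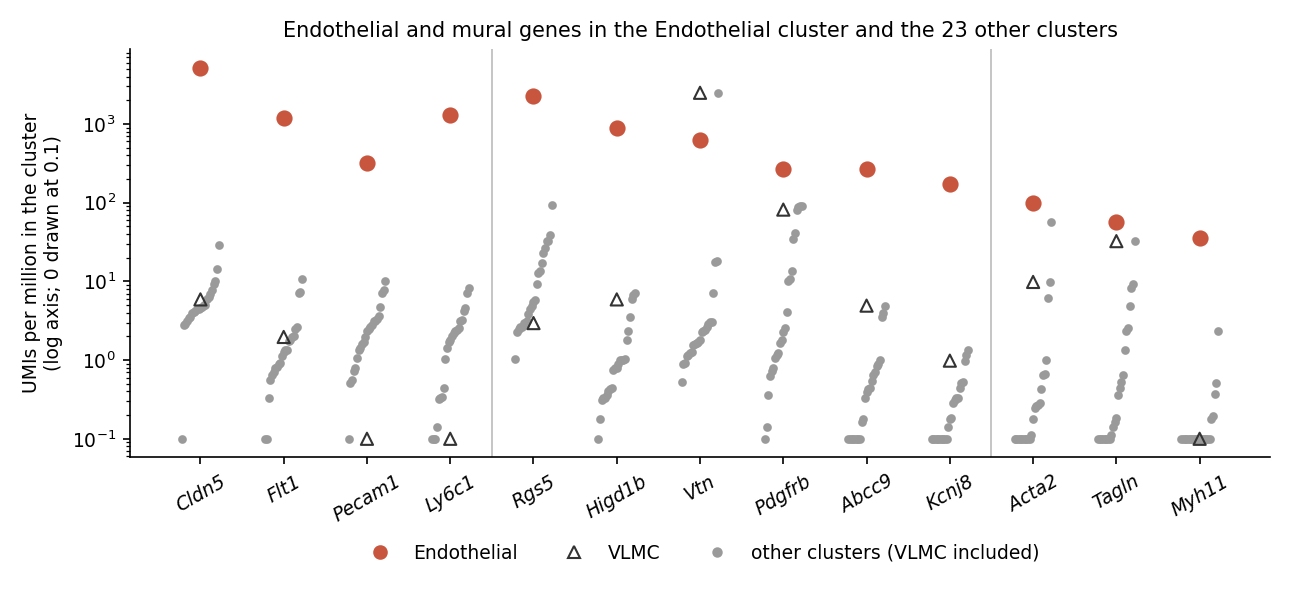
Summed level (CPM, log axis, with 0 drawn at 0.1) of endothelial, pericyte and smooth muscle genes, from left to right, in the Endothelial cluster (red), in VLMC (triangles) and in each of the other clusters (grey points). Cldn5 stands at 5171 CPM against at most 29.3 CPM elsewhere, and Vtn is the gene shown that is higher in VLMC, at 2489 against 628 CPM.

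Of the mural genes Rgs5 and Acta2, Rgs5 was found in most cells of the cluster and Acta2 in few, and they rarely stood in place of Cldn5. Cldn5 was detected in 94.1% of the 543 cells, Flt1 in 86.6% and Pecam1 in 58.9%. Rgs5, a regulator of G protein signalling that marks pericytes, was detected in 79.01%, and Acta2, the actin of smooth muscle, in 4.79%. In other clusters Cldn5 was found in at most 4.40% of cells, and Rgs5 in 0.487% to 20.7% with a median of 2.16%. The highest of these was RGL_young, whose median cell held 3948 UMIs against 2858 in the Endothelial cluster. These medians pool all ages, and the part of depth in the detection of Rgs5 was not tested.

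Split by these genes, 408 cells had Cldn5 together with Acta2 or Rgs5, 103 had Cldn5 alone, 30 had Acta2 or Rgs5 and no Cldn5, and 2 had none of them. The 30 cells that carried a mural gene in place of Cldn5 made up 5.52% of the cluster. They numbered 6 at E16.5, 2 at P0, 1 at P5, 1 at P18, 6 at P19, 2 at P23 and 12 at P132. As shares these are 18.2%, 11.8%, 1.69%, 1.12%, 6.32%, 1.67% and 9.30%, so the ages of the 2 stages overlapped. The mean was 10.5% ± 8.31 over the perinatal ages and 3.04% ± 2.85 over the juvenile ages (SD, n = 3 each), a difference of -7.51 points that did not pass a two-sided exact permutation test (p = 0.2, adjusted 0.2 over 3 share tests, smallest possible p 0.1). Without E16.5 the difference was -3.69 points.

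Smooth muscle genes were found in few cells and Rgs5 in most. Acta2 was detected in 26 cells, 15 of them without Cldn5, and Rgs5 in 429, 22 of them without Cldn5. Of the 230 Acta2 UMIs, 229 lay in 25 cells that held at least 2 of the smooth muscle genes Acta2, Tagln (transgelin) and Myh11 (smooth muscle myosin), and 1 cell alone held 44. Of these 25 cells 13 were juvenile and 12 came from P132, 10 had Cldn5, 16 had Rgs5 and 13 had 2 or more of 5 pericyte genes (Vtn, Pdgfrb, Higd1b, Kcnj8 and Abcc9). Among the 109 perinatal cells none had an Acta2 UMI, which by counting error alone allows a share of cells with a UMI of up to 2.75%; a cell without a captured UMI may still express the gene. The P120 cell had Cldn5 and neither mural gene.

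For each cell, a mural share was taken as the UMIs of the 20 mural genes over those of the mural and the 25 endothelial genes together. It had its median at 23.3%: 246 cells lay under 20%, 212 between 20% and 50% and 85 at 50% or more, with 96 between 40% and 60%. Of the 32 cells without Cldn5, 25 had a mural share of 80% or more, 2 lay between 50% and 80%, and 5 lay under 50%. In all, 32 cells reached 80%, of which 7 still had a UMI of Cldn5. Each of these 32 held 2 or more smooth muscle genes, 2 or more of the 5 pericyte genes, or both. The 10 perinatal ones all had pericyte genes and none had smooth muscle genes, whereas of the 11 juvenile ones 9 had smooth muscle and 5 pericyte genes, and of the 11 at P132 9 and 6. From the mural-poor cells (under 20%) to those at 80% or more, the summed Cldn5 level went from 6450 to 177 CPM and that of Acta2 from 1.09 to 2213 CPM, while Rgs5 was at 800 CPM in the former and 2898 CPM in the latter. Among the mural-poor cells Rgs5 was still detected in 58.9%. The 5 pericyte genes were found there in fewer: Higd1b in 17.9%, Vtn in 8.94%, Pdgfrb in 7.32%, Abcc9 in 6.91% and Kcnj8 in 2.44%. Counts of cells by Rgs5 thus ran higher than counts by those genes. All these genes but Cldn5 are part of the mural list, and Cldn5 of the endothelial one, so the values describe the split and carry no test.

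**Figure D2:**
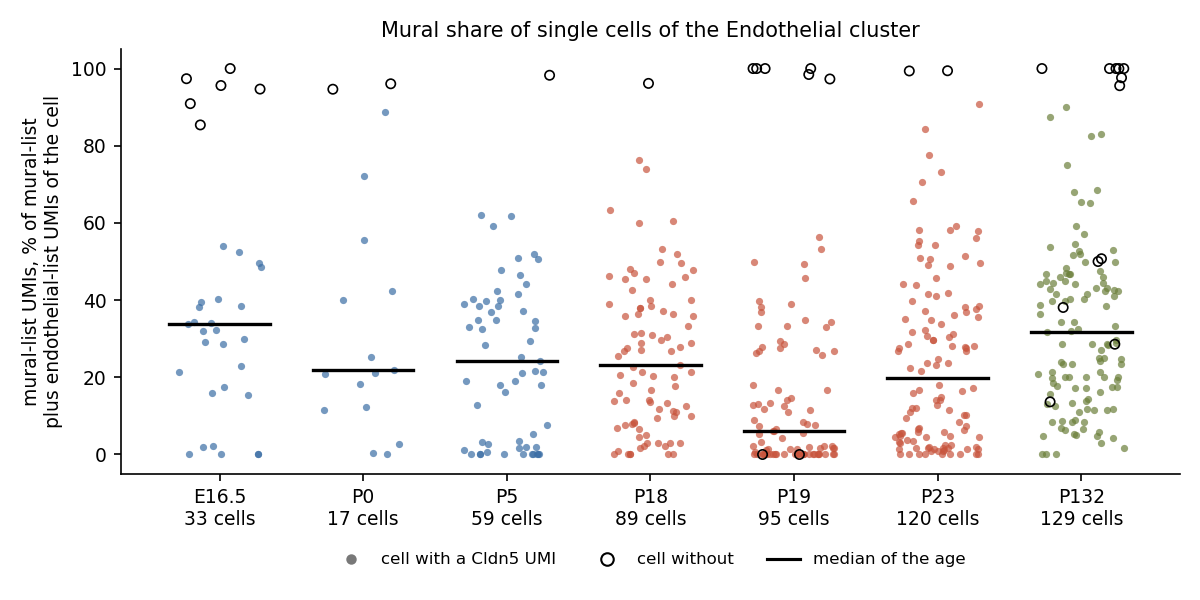
Mural share of every Endothelial cell (percent of the UMIs of the mural and endothelial lists that belong to mural genes) by age, with filled points for cells that hold a UMI of Cldn5 and open circles for those that do not. Lines mark the median of each age, which is lowest at P19 (6.06%), and 25 of the 32 cells without Cldn5 lie at 80% or more.

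Transcripts of both vessel layers occurred together in the same barcodes. Of the 543 cells, 282 had 2 or more of the 5 pericyte genes, which was also found in 33.1% of VLMC cells. Of the 282 Endothelial cells, 257 (47.3% of the cluster) also had 2 or more of Cldn5, Flt1 and Pecam1. No other cluster had such cells at more than 0.283% (nIPC). By age their share was 60.6% at E16.5, 58.8% at P0, 62.7% at P5, 49.4% at P18, 23.2% at P19, 51.7% at P23 and 48.1% at P132, so P19 was lowest and the perinatal ages stood above the juvenile ones. The means were 60.7% ± 1.95 and 41.4% ± 15.9 (SD, n = 3 each), a difference of -19.3 points at the smallest p that an exact permutation test of 3 against 3 ages can give (two-sided p = 0.1, adjusted 0.15). With each cell thinned to 1000 UMIs the shares were 9.01% ± 7.97 and 25.2% ± 11.5, a difference of 16.2 points the other way (exact permutation test, p = 0.2). The order of the stages was thus not kept at equal depth, and its cause was not tested. Without P19 the unthinned difference was -10.2 points. Cells with both sets of genes also held more UMIs than cells with the endothelial markers and no pericyte gene at E16.5 (median 12442 against 5372), P5 (9830 against 4468), P18 (2515 against 2007), P19 (3634 against 2130), P23 (4681 against 3650) and P132 (1840 against 1711). P0 went the other way, with 8326 in 10 cells against 13212 in 3. Because the classes are set by detected genes, deeper cells enter the class with both sets more easily. These depths therefore describe the classes and carry no test. The part of doublets, of attached cells and of free RNA in these mixed profiles was not tested.

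Endothelial cells made up a larger share of the cells at each juvenile than at each perinatal age. The share of all cells was 1.44% at E16.5, 0.356% at P0, 1.33% at P5, 3.28% at P18, 4.57% at P19 and 4.44% at P23. The stages did not overlap, and the difference of 3.05 points was at the smallest p the design allows (two-sided exact permutation test, p = 0.1, adjusted 0.15). P120 and P132, which were sorted for GFP, had 0.0734% and 3.37% and were not tested. Shares in a dissociated suspension follow how well each cell type survives as well as how common it is, and these cannot be told apart here.

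Between the perinatal and the juvenile ages, the 3 markers of the cluster did not pass the test, while transporter, interferon and cell cycle genes did. The comparison asks how vessel cells of the dentate gyrus differ before and after the first postnatal weeks. It took the summed counts of E16.5 and P5 (2 perinatal ages) and of P18, P19 and P23 (3 juvenile ages), since P0, with 17 cells, was below the minimum of 20. Of 5337 genes tested with edgeR, 13.6% passed an adjusted p of 0.05, 7.29% higher and 6.28% lower in the juvenile ages. The median log2 fold change of all genes was 0.0147. These shares are the background for each list below. Ranges over the perinatal ages take in P0, although it did not enter the test. Cldn5, at 5096 CPM at E16.5, 6672 at P0, 5328 at P5, 4529 at P18, 4012 at P19 and 6134 at P23, differed by a log2 fold change of -0.28 ± 0.24 (SE), within the spread between ages (adjusted p = 0.487, edgeR). Pecam1 lay between 244 and 369 CPM at all 7 ages from E16.5 to P132 (0.21 ± 0.26, adjusted p = 0.638). Flt1 read 459, 674 and 794 CPM at the perinatal and 1013, 1926 and 1492 CPM at the juvenile ages; the groups did not overlap, but the gene missed the threshold (1.04 ± 0.33, adjusted p = 0.0512).

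Of the 25 endothelial identity genes, 7 rose, 1 fell and 17 did not pass. Ly6a, which encodes the surface antigen Sca-1, had 15.8, 0 and 49.5 CPM at E16.5, P0 and P5 and 386, 664 and 603 CPM at P18, P19 and P23, a log2 rise of 3.77 ± 0.43 (edgeR adjusted p = 0.000113). Ly6c1 rose from 152–482 CPM to 1322–2868 CPM. Ptprb, an endothelial receptor phosphatase, rose from 117–254 CPM to 716–848 CPM, and Podxl, a sialomucin of the luminal surface, from 76.0–138 CPM to 280–347 CPM. Ecscr, a surface protein of endothelial cells, fell from 308–367 CPM to 93.2–141 CPM. These 5 calls stood without any 1 age. Tek, the angiopoietin receptor, Itm2a and Sox17, an endothelial transcription factor, lost theirs without E16.5 (adjusted p = 0.0525, 0.109 and 0.219), Itm2a also without P18 or P5, and Sox17 also without P19, P23 or P5.

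Transporters of the blood-brain barrier changed in both directions: of 25 tested, 8 rose, 4 fell and 13 did not pass. Slco1a4, an organic anion transporter of brain capillaries, was at 0 CPM at E16.5 and P0, 60.9 at P5, 1686 at P18, 2303 at P19 and 1607 at P23, and stood at 2132 in P132. It was detected in 0% of cells at E16.5 and P0, 22.03% at P5 and 87.6% to 91.7% at the juvenile ages, and with cells thinned to 1000 UMIs in 10.2% at P5 and 75.8% to 78.7% at the juvenile ages. The log2 rise was 5.55 ± 0.67 (edgeR adjusted p = 0.000143), a size that rests on P5, the tested perinatal age with UMIs of the gene. Abcb1a, which encodes the efflux pump P-glycoprotein, rose from 65.2–70.4 CPM to 390–499 CPM (2.45 ± 0.31). Slc6a6, the taurine transporter, rose from 165–275 CPM to 853–902 CPM, Slc19a3, a thiamine transporter, from 9.496–43.5 CPM to 82.4–136 CPM, and Slc16a4, a member of the monocarboxylate transporter family, from 47.5–60.9 CPM to 177–191 CPM.

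Of the 4 that fell, 3 serve amino acid transport. Other amino acid carriers of the list, Slc7a5, Slc7a1 and Slc38a3, did not pass (edgeR adjusted p = 0.466, 0.645 and 0.620). Slc1a4, a carrier of small neutral amino acids, had 206, 304 and 295 CPM at the perinatal ages and 25.4, 19.6 and 10.3 CPM at the juvenile ones, a log2 fall of -4.10 ± 0.39 (edgeR adjusted p = 5.39e-05). Slc3a2, the heavy chain of amino acid exchangers, fell from 777–1304 CPM to 301–484 CPM, and Slc38a5, a glutamine carrier, from 491–658 CPM to 138–339 CPM. These 8 calls stood without any 1 age. Slc2a1, the glucose transporter, was at 535, 500 and 204 CPM and then 589, 644 and 680 CPM and did not pass (0.63 ± 0.34, adjusted p = 0.241). Slc16a1, the lactate transporter, differed widely among the perinatal ages, with 12.7 CPM at E16.5, 442 at P0 and 792 at P5 against 1118 to 1871 at the juvenile ages (adjusted p = 0.163). Other calls depended on single ages: Abcc4, an efflux pump, was lost without E16.5 (adjusted p = 0.0534); Abcg2, another, without each of the 5 ages (0.0536 to 0.222); and Mfsd2a, a lipid transporter that fell, without P18, P19 or P5 (0.134 to 0.303).

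Of 14 junction genes tested, 1 rose and none fell, near the share of all genes: Ocln, the tight junction protein occludin, had 72.4 to 85.5 CPM at the perinatal and 297 to 386 CPM at the juvenile ages (1.84 ± 0.30, edgeR adjusted p = 0.00133). Tjp1, the tight junction scaffold ZO-1, had 212 to 225 CPM and 350 to 428 CPM, groups that did not overlap, and missed the threshold (0.67 ± 0.27, adjusted p = 0.114). Of 9 genes of caveolae and vesicle transport 2 rose, Cav2 from 50.6–65.2 CPM to 316–517 CPM (2.74 ± 0.34) and Sdpr, a cavin, from 38.0–79.7 CPM to 203–244 CPM (2.04 ± 0.32). Cav1, the partner of Cav2, had 164 to 218 CPM and 216 to 259 CPM and did not pass (0.18 ± 0.27, adjusted p = 0.704).

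**Figure D3:**
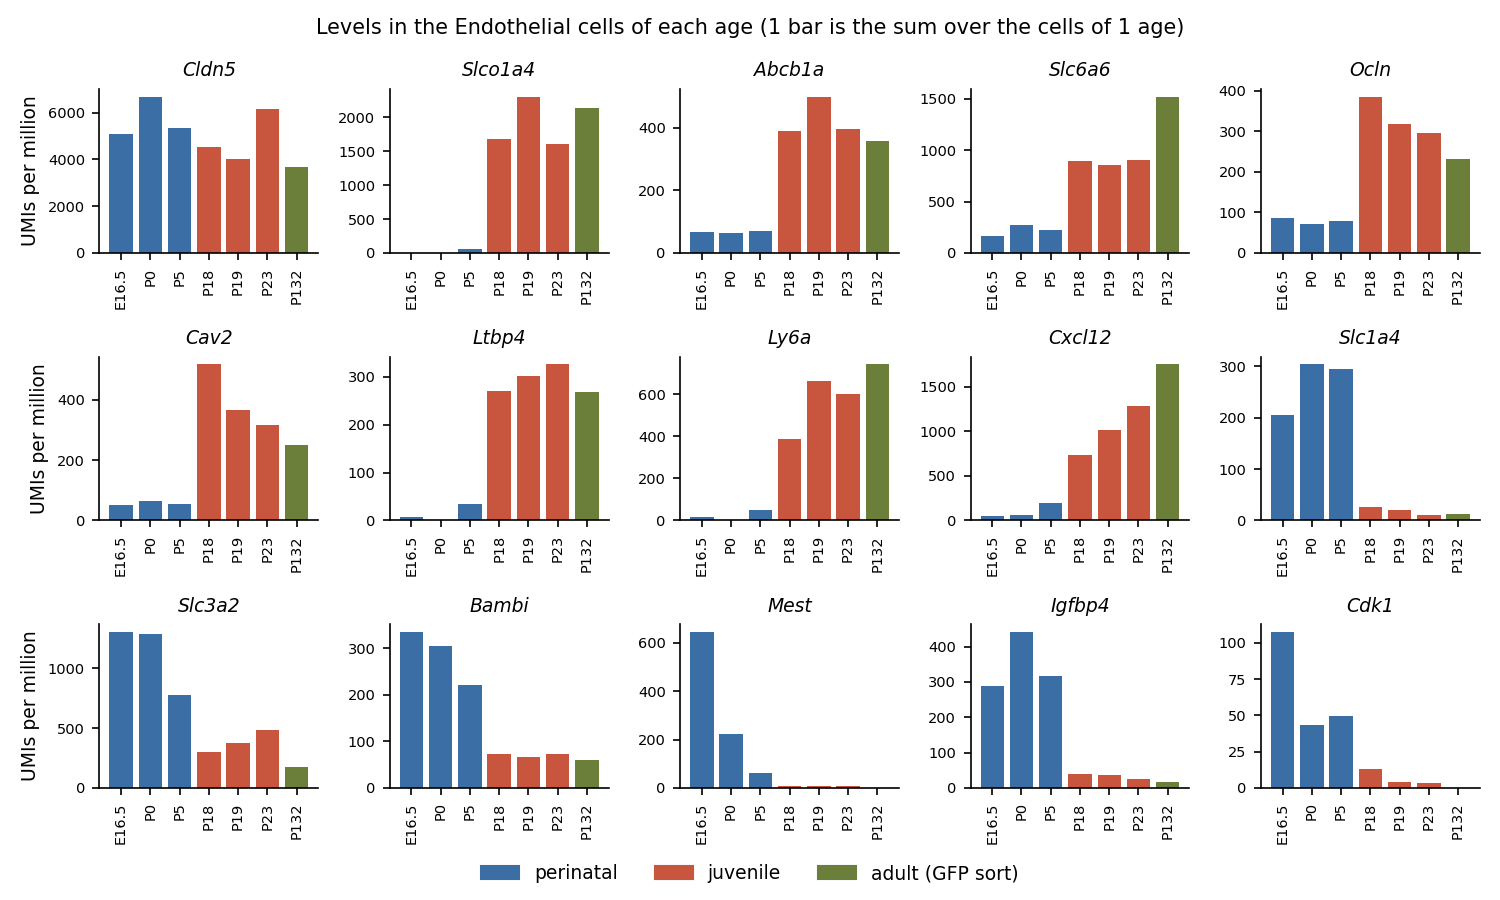
Summed level (CPM, linear axes from 0) of 15 genes in the Endothelial cells, 1 bar per age from E16.5 to P132, coloured by stage. Slco1a4, at 0 CPM at E16.5 and P0, stands at 1607–2303 CPM at P18, P19 and P23, and Slc1a4 goes from 206–304 CPM to 10.3–25.4 CPM.

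Of the signalling lists, Wnt had 3 calls among 18 genes, VEGF 4 of 19, Notch 1 of 13 and BMP and TGF-beta 6 of 14, beside 13.6% of all genes. Among the 18 Wnt and beta-catenin genes 3 rose, Lef1, a transcription factor and target of the pathway, Tspan12, a co-factor of the receptor Fzd4, and Sox17, and each of these calls was lost without some single age. Lef1 had 91.8, 109 and 93.3 CPM and then 229, 259 and 225 CPM (1.17 ± 0.28, edgeR adjusted p = 0.0133), and lost its call without E16.5 (0.114) or P5 (0.0567). Tspan12 lost it without E16.5 (0.275), P18 (0.105) or P19 (0.096). Axin2, a feedback target of the pathway, was at 30.5 to 60.1 CPM and 42.4 to 74.7 CPM (0.20 ± 0.40, adjusted p = 0.778).

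Of 19 VEGF, angiopoietin and tip cell genes, Cxcr4, the chemokine receptor of sprouting tip cells, fell from 91.4–123 CPM to 25.8–31.4 CPM (-1.89 ± 0.34, edgeR adjusted p = 0.00252). Tek and S1pr1, a receptor for sphingosine phosphate, rose, and Ramp2, a co-receptor for adrenomedullin, fell, but S1pr1 lost its call without E16.5 (0.0989) and Ramp2 without P18, P19 or P5 (0.103 to 0.157). Of 13 Notch genes, Nrarp, a feedback inhibitor of the pathway, fell from 109–237 CPM to 55.1–82.4 CPM (-1.76 ± 0.30), a call that stood without any 1 age, and the other 12 did not pass.

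Of 14 genes of BMP and TGF-beta signalling 5 rose and 1 fell. Ltbp4, which binds latent TGF-beta in the matrix, had 6.33, 0 and 34.3 CPM and then 271, 303 and 326 CPM (3.52 ± 0.43, edgeR adjusted p = 0.000157, and 5.32 without P5). Smad7, the inhibitory Smad, rose from 3.81–14.5 CPM to 50.8–70.7 CPM, and Id1, a target of BMP signals, from 196–240 CPM to 449–920 CPM. Bambi, a decoy receptor, fell from 221–336 CPM to 66.8–73.8 CPM (-2.13 ± 0.29). These 4 calls stood without any 1 age; Id2 and the receptor Bmpr2 lost theirs without E16.5 (0.196 and 0.0975), and Id2 also without P19 or P23. Id3 was at 543 to 617 CPM and 686 to 1260 CPM and did not pass (adjusted p = 0.185). Those that changed thus include inhibitors of the pathway in both directions.

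Genes of the basement membrane, the sheet that endothelium and pericytes share, were divided: of 19 tested 2 rose and 3 fell. Lamb2, a laminin chain, rose from 34.8–59.0 CPM to 177–209 CPM, and Itga6, a laminin receptor subunit, from 24.7–47.5 CPM to 93.2–267 CPM. Bgn, the proteoglycan biglycan, fell from 348–573 CPM to 63.6–92.7 CPM (-2.69 ± 0.30, edgeR adjusted p = 0.000112). Lamb1, another laminin chain, fell, but not without E16.5 (0.0761) or P23 (0.0837), and Serpinh1, a collagen chaperone, fell, but not without E16.5 (0.361), P19 (0.108) or P23 (0.105).

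Of the 9 cell cycle genes with enough counts to test, none rose and 5 fell. Cdk1, the mitotic kinase, had 108, 43.5 and 49.5 CPM and then 12.7, 3.93 and 3.43 CPM (-3.83 ± 0.58, edgeR adjusted p = 0.00093), a call that stood without any 1 age. Birc5, H2afz, Ube2c and Hmgb2 lost theirs without E16.5 (adjusted p = 0.0806 to 0.341), Ube2c also without P18 or P23 and Hmgb2 also without P19 or P23. Cells with 2 or more of 13 mitotic genes numbered 11 of 33 at E16.5, 1 of 17 at P0 and 18 of 59 at P5, then 2 of 89 at P18, 1 of 95 at P19 and 0 of 120 at P23, and 0 of 129 at P132. Thinned to 1000 UMIs, the shares were 12.1%, 5.88% and 1.69% at the perinatal ages, and 0%, 1.05% and 0% at the juvenile ones, so the P5 share then lay near those of the juvenile ages.

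Among the functional lists, MHC class I and the interferon response had the highest count of rises: 11 of 22 tested rose, beside 7.29% of all genes, and none fell. Sp100, a nuclear body protein induced by interferon, had no UMI at any perinatal age and 89.0, 106 and 94.4 CPM at P18, P19 and P23, at least 26.9-fold higher against a floor of 3 counts. Psmb8, a subunit of the immunoproteasome, rose from 0–9.52 CPM to 39.3–105 CPM. Isg15, a ubiquitin-like protein, rose from 9.496–21.7 CPM to 42.4–167 CPM (2.73 ± 0.54, edgeR adjusted p = 0.0045), and Gbp7, an interferon-induced GTPase, from 22.2–36.2 CPM to 99.6–118 CPM. Ifit1, an antiviral protein, had 8.47 CPM at P18, 106 at P19 and 56.7 at P23 against 1 UMI over the perinatal ages, a ratio of 48.6 with a counting interval of 8.41 to 1951. Irf7, a transcription factor of the response, rose at an adjusted p of 0.00936, although P0 (36.2 CPM), which did not enter the test, lay above P18 (16.9 CPM). Ly6a and Ly6c1 are members of this list too. The list's count of rises was 7 without P19, 8 without E16.5 and 7 in mural-poor cells. In mural-poor cells 6 of the 11 genes were tested, and all 6 kept their calls. The count was 12 with DESeq2 and 12 without cells at a mural share of 50% or more. Tapbp, Ifi27 and Ly6e lost their calls without E16.5 (0.106, 0.0877 and 0.145) or P23, and Tapbp and Ifi27 also without P19, while Ifit1 and Irf7 had too few counts to test without P19 or P23. P19, the C57Bl/6 age, was the highest of the juvenile ages for Sp100, Gbp7, Ly6a, Ifit1, Irf7 and Tapbp, and P23 for the other 5 genes that rose. Of the genes that encode MHC class I chains, H2-D1, H2-K1 and B2m did not pass, and H2-Q4, H2-Q6, H2-Q7 and H2-T23 had too few counts to test.

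Growth and lipid genes changed in both directions. Mest, an imprinted gene of fetal growth, had 646, 225 and 60.9 CPM at E16.5, P0 and P5 and 7.86 to 8.59 CPM at the juvenile ages (-5.47 ± 0.81, edgeR adjusted p = 0.000785), and no UMI at P132; without E16.5 the log2 difference was -3.08. Of 9 imprinted and fetal growth genes 3 fell and 1 rose: Meg3, an imprinted noncoding RNA, fell from 354–1043 CPM to 149–237 CPM, Igf2 fell but not without E16.5 (0.174), and Igf1r, the receptor for insulin-like growth factors, rose from 196–261 CPM to 544–1006 CPM. Of 12 genes of lipid handling and hormone receptors 3 rose and 4 fell. Fabp5, a fatty acid binding protein, fell from 291–484 CPM to 25.4–67.0 CPM (-3.12 ± 0.35), and Paqr5, a membrane progestin receptor, rose from 1 UMI over the perinatal ages to 97.4, 126 and 137 CPM (ratio 106, counting interval 18.7 to 4212). Insr, the insulin receptor, rose but lost its call without E16.5, P18, P19 or P5 (0.0718 to 0.177). Ptges, a prostaglandin synthase, fell but not without P19 (0.0517) or P5 (0.163), Lrp8, a lipoprotein receptor, not without P18 (0.0551) or P23 (0.0547), and Abca1, a cholesterol exporter, not without P19, P23 or P5 (0.114 to 0.158).

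Markers of vessel segments were few. Of 8 capillary genes 3 rose and 1 fell. Cxcl12, a chemokine, had 50.6, 58.0 and 199.9 CPM and then 737, 1010 and 1284 CPM (2.76 ± 0.46, edgeR adjusted p = 0.00162), and Car4, a carbonic anhydrase of capillaries, had 79.1, 340 and 533 CPM and then 1962, 1340 and 1066 CPM, but lost its call without E16.5 (0.0632), P18 (0.0633) or P19 (0.0682). Of 6 arterial genes, Mgp, a matrix protein of arteries that smooth muscle also makes, rose from 0–3.81 CPM to 84.7–132.2 CPM, and Gja4, an arterial connexin, fell, but not without E16.5 (0.168). Of 6 venous genes Slc38a5 alone passed.

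Smooth muscle genes rose in the summed cells, and of the pericyte genes Kcnj8 fell. Acta2 had no UMI at E16.5, P0 and P5 and 25.4, 236 and 192 CPM at P18, P19 and P23, at least 46.5-fold higher against a floor of 3 counts. Tagln and Myh11 likewise were at 0 at the perinatal ages and at least 20.4-fold and 12.8-fold higher at the juvenile ones. The rise of Acta2 rests on the 14 juvenile cells that held it, and without P23 none of these 3 genes had enough counts to test. Crip1, a small LIM protein of smooth muscle and other cells, rose from 60.9–85.5 CPM to 199–532 CPM. Kcnj8 fell from 148–446 CPM to 55.0–163 CPM, groups that overlap, and lost its call without E16.5 (0.378), P18 (0.0688) or P19 (0.112). Higd1b (1409, 942, 971 CPM, then 775, 358, 845 CPM) fell short of the threshold (-1.02 ± 0.33, edgeR adjusted p = 0.0564). Rgs5 (0.42 ± 0.32), Vtn and Pdgfrb (-0.40 ± 0.32) did not pass either (edgeR adjusted p = 0.421, 0.681 and 0.450). Among the 19 mural genes tested, 4 rose and 1 fell. Once the cells with at least as many mural as endothelial UMIs were left out, 1 rose and 3 fell. That filter counts UMIs of the same mural genes, so the shift describes the filter and carries no test.

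**Figure D4:**
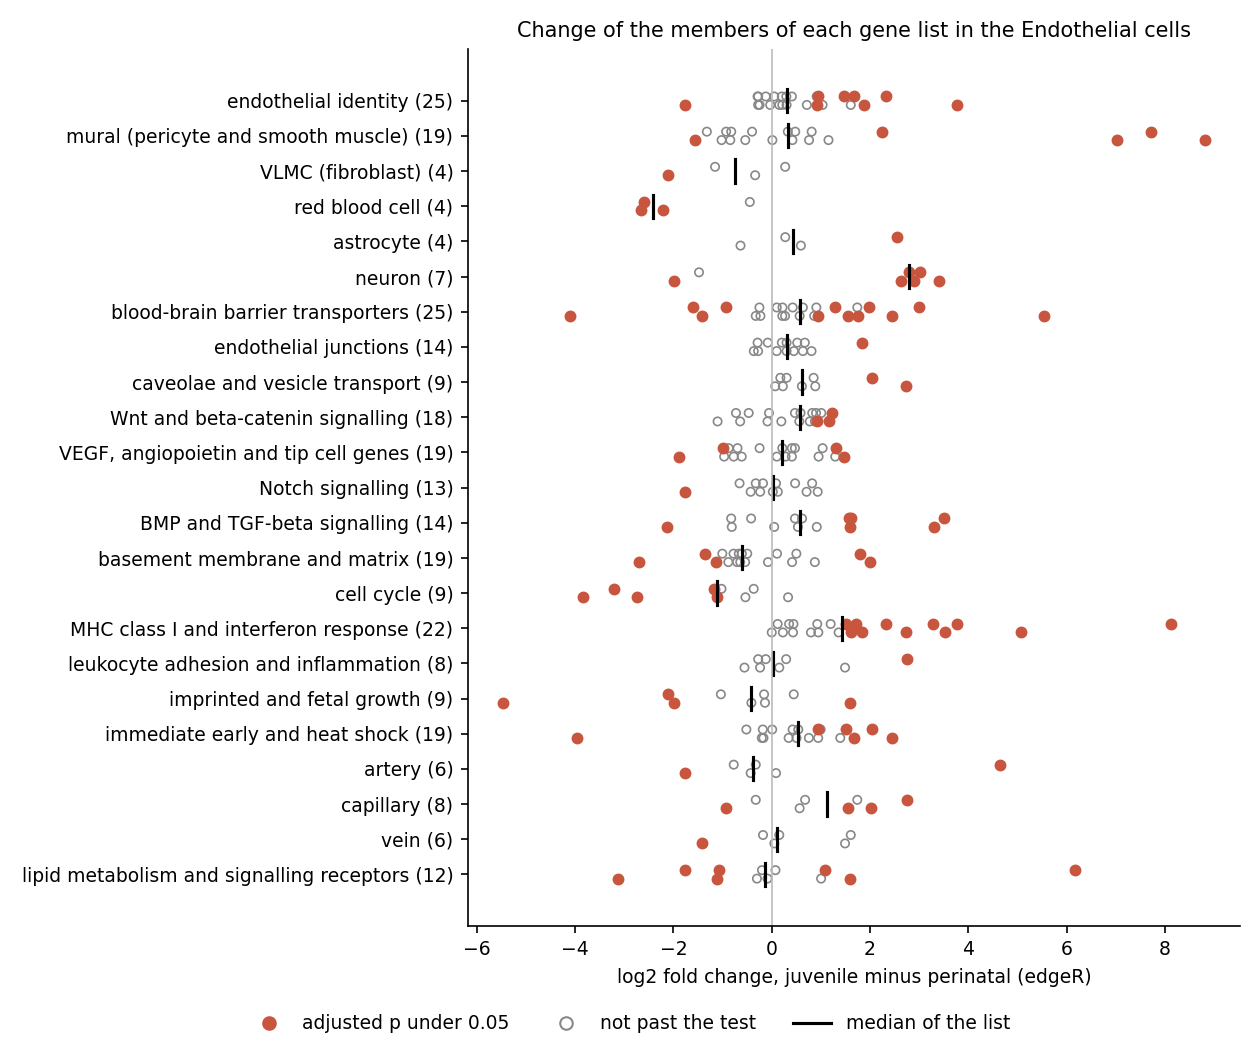
Log2 fold change, juvenile minus perinatal, of each tested gene of the functional and cell type lists (rows) in the Endothelial sums, with genes past an edgeR adjusted p of 0.05 marked apart from the others and the median of each list as a line. In the interferon list 11 of 22 genes rose and none fell, while in the cell cycle list 5 of 9 fell and none rose.

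By the rule of largest change, the genes that rose most at a mean of 50 CPM or more were Acta2, Sp100, Paqr5, Ndrg1, Plppr4, Slco1a4, Ndnf, AW112010, Mbp, Lims2, Mgp and Pcp4l1. Ndrg1, a stress and hypoxia response gene, had 3.17, 7.24 and 0 CPM and then 93.2, 145 and 106 CPM. Ndnf, a secreted factor, had 0, 0 and 9.52 CPM and then 208, 193 and 282 CPM (edgeR adjusted p = 9.35e-05), and Lims2, a focal adhesion protein, 0, 0 and 7.61 CPM and then 114, 161 and 227 CPM. Pcp4l1 had 6.33 to 11.4 CPM and then 208 to 409 CPM, Plppr4 0 to 1.90 CPM and then 59.3 to 130 CPM, and AW112010 0 to 7.61 CPM and then 122 to 225 CPM.

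The genes that fell most were Mest, Slc1a4, Dusp2, Gm8730, Fabp7, Igfbp4, Fabp5, Cotl1, Trf, Bgn, Marcksl1 and Lgals1. Igfbp4, a binding protein of insulin-like growth factors, had 288, 442 and 318 CPM and then 38.1, 35.4 and 24.0 CPM (-3.47 ± 0.32, edgeR adjusted p = 5.39e-05). Trf, the iron carrier transferrin, fell from 162–462 CPM to 30.9–78.6 CPM. Marcksl1, which acts on actin, fell from 297–557 CPM to 66.8–82.4 CPM, and Cotl1, another actin regulator, from 141–231 CPM to 15.7–39.5 CPM. Dusp2, an immediate early phosphatase, fell from 136–156 CPM to 0–25.4 CPM, and of 19 immediate early and heat shock genes tested it was the 1 that fell, 5 rose (Dusp1, Klf2, Klf4, Hspb1 and Hspa1a) and 13 did not pass, Fos among them (0.01 ± 0.31, adjusted p = 0.986). Of the 5 that rose, Klf2 lost its call without E16.5 (0.313), P19 or P23, Klf4 without E16.5 (0.108) or P19, and Hspa1a without P5 (0.144). Gm8730 is a pseudogene whose reads may belong to a near-identical ribosomal protein gene, and its value is uncertain. Between P0 and P18, whose libraries share a name stem, 704 of the 724 called genes differed in the direction of the test, which P18 entered and P0 did not, so this is a description. The count of calls fell from 724 to 439 without E16.5 and to 389 without P19.

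Transcripts of other cell types were present in the sums and moved with age. The 6 genes of red blood cells had 9265, 54416 and 47788 CPM at E16.5, P0 and P5, 1068, 6751 and 11838 CPM at the juvenile ages and 20.04 CPM at P132. A single cell held 100% of these UMIs at P18, 99.5% at P19 and 96.8% at P23, against 23.4% to 68.0% at the perinatal ages. Of these, Hbb-bs, Hba-a1 and Hbb-bt fell, though not without P19 or P5, and Hbb-bt also not without P18. All 3 oligodendrocyte genes tested rose, Mbp and Mal among them, the list summing to 41.1, 72.4 and 66.6 CPM and then 237, 303 and 661 CPM. Of 7 neuronal genes 5 rose (Camk2a, Snap25, Nrgn, Prox1 and Syt1) and Meg3 fell, with list sums of 1067, 1181 and 495 CPM and then 441, 810 and 771 CPM. The astrocyte list summed to 283 to 418 CPM and 479 to 691 CPM, and Slc1a2 rose. Microglial genes summed to 14.5 to 53.3 CPM and 42.4 to 99.6 CPM, those of VLMC to 253 to 611 CPM and 212 to 349 CPM, and those of perivascular macrophages to 193 CPM at E16.5, of which 96.7% lay in 1 cell. The part of these transcripts in the other results was not tested. Without cells over 5% haemoglobin 710 genes were called, and in mural-poor cells 416 of 2176 tested, 308 of them shared with the 724.

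To see which changes differed from those of other cells of the same animals, the endothelial change was set against the mean change in Neuroblast, Immature-GC and OPC, with age as a block. Of 8419 genes, 3.35% passed (edgeR adjusted p under 0.05), 2.36% more positive and 0.986% more negative in Endothelial cells. The changes of Cxcl12 and Lef1 were more positive than those of the other clusters (adjusted p = 0.000133 and 6.73e-05). No size is given for these 2, since Neuroblast held no Cxcl12 UMI and OPC no Lef1 UMI at the juvenile ages. Cxcl12 was at 0 to 32.1 CPM and Lef1 at 0 to 41.3 CPM in the other 3 clusters. Mest, in contrast, differed by -3.75 ± 0.67 (edgeR adjusted p = 0.0003, and -2.47 without E16.5). It was at 47.6 to 64.6 CPM in Neuroblast at all 6 ages, and in OPC at 83.8 CPM at P0 and 17.7 CPM at P23. The OPC sum of E16.5, with Mest at 1531 CPM, was not among the sums tested. Cks1b and Cks2, subunits of cell cycle kinases, differed by -2.59 ± 0.50 and -2.55 ± 0.64, and Mdk, the growth factor midkine, by -2.45 ± 0.46. In Neuroblast Mdk lay at 574 to 1459 CPM throughout. In Endothelial cells it had 123, 7.24 and 47.6 CPM and then 16.9, 11.8 and 8.59 CPM. Endothelial P0, which did not enter the test, thus lay below every juvenile age. The differences of Lef1 and Mest passed without any 1 age. Cxcl12 lost its call without P5 (adjusted p = 1), which left E16.5 as the single perinatal age of the Endothelial sums, and Cks1b, Cks2 and Mdk lost theirs without P23 (0.141, 0.291 and 0.0606).

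Plppr4 differed by 4.80 ± 0.91 (edgeR adjusted p = 0.000687) and Arxes1 by -2.38 ± 0.65 (0.0266). The size for Plppr4 is uncertain, since the tested perinatal Endothelial sums held 1 UMI of it. The counting interval of its juvenile to perinatal ratio in the cluster was 16.1 to 3654. Nrn1 and Lrp1b, neuronal genes, also passed (0.0215 and 0.0178), but were at 0 in every perinatal Endothelial sum and at most 39.3 and 23.6 CPM at the juvenile ages, too low for the test within the cluster, and no size is given for them. Slc1a4 was also more negative here (-3.42 ± 0.61, adjusted p = 0.000283). Plppr4 lost its call without P5, Nrn1 and Lrp1b without P5 or P23, Arxes1 without E16.5 (-1.45), P19 or P23, and Slc1a4 without P19 or P23. Of the lists, 4 of 15 BMP and TGF-beta genes, 3 of 19 Wnt genes, 3 of 10 neuronal genes and 3 of 10 imprinted and fetal growth genes were more positive, as were 2 of 25 barrier transporters. More negative were 3 of 27 cell cycle, 3 of 20 immediate early and heat shock and 3 of 14 lipid genes. In each other list at most 2 genes passed. For 286 genes, Slco1a4, Abcb1a, Slc16a4, Slc19a3 and Acta2 among them, the fit gave no usable standard error and the difference is not read. Those that belong to a list stay in its number of genes but could not pass. The list counts, that of the barrier transporters among them, therefore do not show how many changes were shared with the other clusters. The count of 282 genes fell to 145 without P5 and to 73 without P23, to 91 without the age block, and to 47 when OPC alone was the reference.

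**Figure D5:**
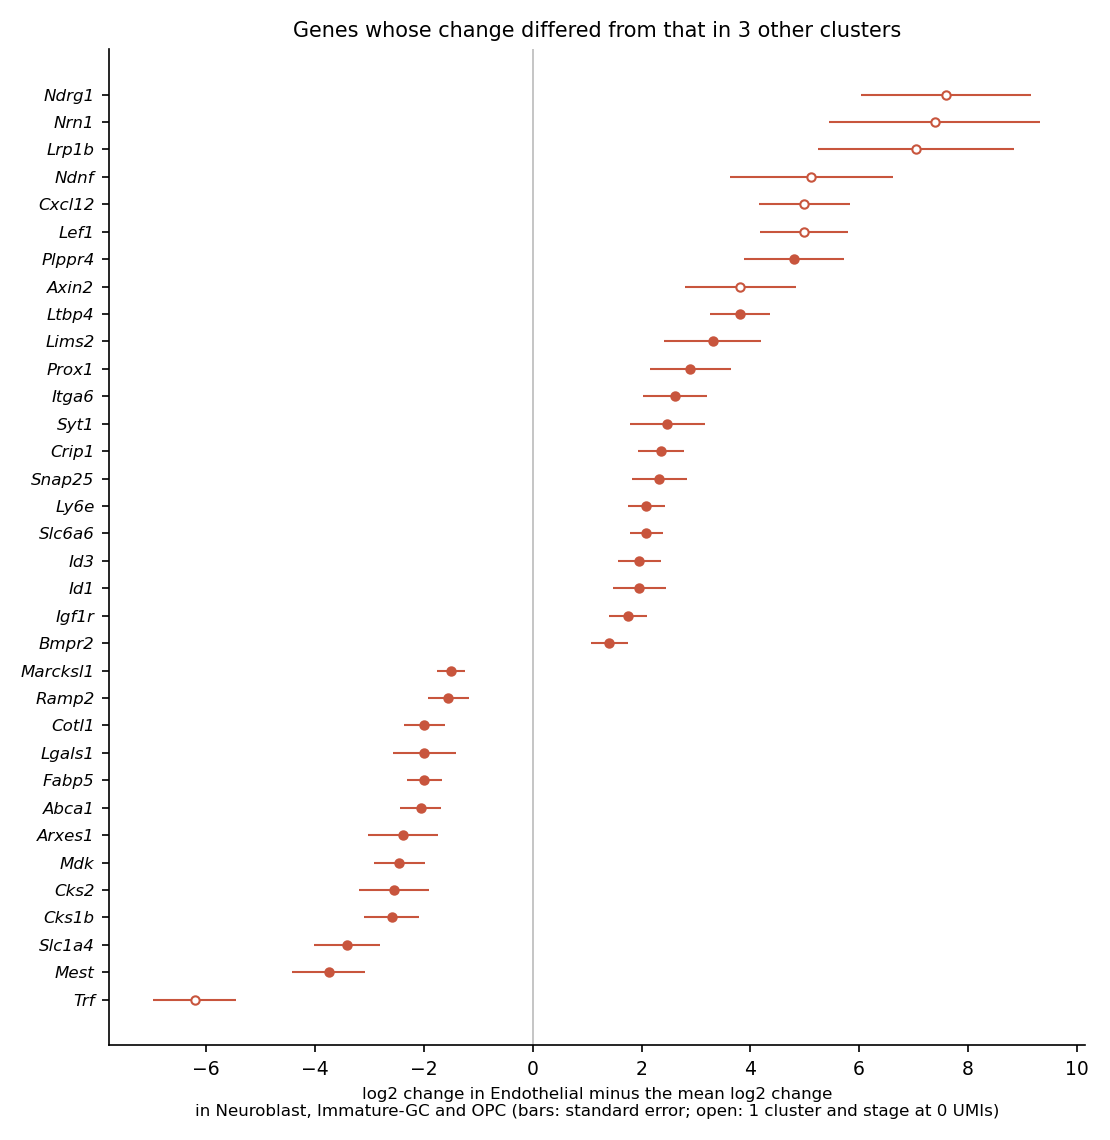
Difference between the Endothelial change and the mean change in Neuroblast, Immature-GC and OPC (log2, juvenile minus perinatal) for the named genes past an edgeR adjusted p of 0.05, with bars of 1 SE. Open points mark 8 of the 34 genes for which 1 cluster and stage had no UMI, so that the plotted size depends on the prior count and is no measurement. The filled point of Plppr4 rests on 1 perinatal Endothelial UMI. Ltbp4 lies at 3.81 and Mest at -3.75.

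The adult cells are given as levels only. At P132, Slco1a4 (2132 CPM), Abcb1a (357 CPM), Ly6a (742 CPM), Sp100 (116 CPM) and Cav2 (249 CPM) lay above every perinatal age, and Slc1a4 (12.03 CPM), Igfbp4 (16.03 CPM) and Cxcr4 (12.03 CPM) below every perinatal age. Slc6a6 (1519 CPM), Cxcl12 (1752 CPM) and Pcp4l1 (649 CPM) were above every younger age, as was Slc1a2 of astrocytes (706 CPM against 3.17 to 199). The astrocyte list summed to 1764 CPM there, in cells collected by a GFAP-driven reporter.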

How the data were processed

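The authors deposited whole-number UMI counts for 27933 genes and 24185 cells and a table naming each cell's age and cluster. Per the labels, cells were captured with 10X Genomics Chromium kit version 2, and per the submitters' processing notes the tools included Cell Ranger and the build mm10; the cell filters and the clustering method are not given in the sources used here. Totals ran from 1114 to 19989 UMIs per cell, and 0 columns were left unmatched to a sample.

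Counts were summed over the Endothelial cells of each age and tested with edgeR 4.0.16 (limma 3.58.1, R 4.3.3; TMM scaling, filterByExpr, quasi-likelihood F test, two-sided, Benjamini-Hochberg adjusted p under 0.05) for ages with 20 or more cells. The standard error is the log2 fold change over the square root of F. The difference of changes used 22 sums of the 4 clusters, with age as a block because clusters of 1 age come from the same animals. Shares were compared with exact permutation tests (SciPy 1.17.1). Floors of 3 counts and counting intervals (exact, 95%) cover counting error only. No doublet caller was run; leaving out cells over 2.5 times their age's median UMIs was an alternative. In simulated counts the stage test recovered 27% of 100 2-fold and 96% of 100 4-fold changes, with 3 false calls among 5337 genes. The test of differences recovered 30% and 87%, with 7 false calls among 8419 genes. Only genes at a mean of 50 CPM or more in Endothelial cells were given changes. Each gene's spread was taken from the trend over genes. Recovery for lower genes, or for genes of larger spread, was therefore not tested.

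Members, gene lists and tests were chosen with earlier results of these data known. Genes were named by rule: in the stage test the 12 largest changes each way at a mean of 50 CPM or more with stages that do not overlap, in the test of differences the 5 largest each way, and the 10 highest ratios over other clusters. Members of the lists may be named too. Some list members are not reported here, although counts include them. Alternatives were RLE scaling, no filter on low counts, DESeq2 1.42.0, a minimum of 5 cells, cells thinned to 1000 UMIs, cells left out by UMIs or mural genes, single ages left out, single reference clusters, and no block.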

Additional observations from a re-analysis of the deposited data

Results flagged for a closer look

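The genes below were singled out because the juvenile minus perinatal change in Endothelial cells differed from the mean of that change in Neuroblast, Immature-GC and OPC (edgeR, adjusted p under 0.05, age as a block). Values are differences of log2 changes. For Cxcl12, Lef1, Axin2, Ndrg1, Ndnf, Nrn1, Lrp1b and Trf, 8 of the 34 genes, 1 cluster had no UMI in 1 stage, so the fitted value depends on the prior count and is no measure of size.

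Among genes of vessels, signalling and transport, the difference was 4.99 for Cxcl12, 4.99 for Lef1, 3.81 for Axin2, 3.81 for Ltbp4, 1.96 for Id1, 1.96 for Id3, 1.41 for Bmpr2, 1.76 for Igf1r, 2.61 for Itga6, 2.09 for Slc6a6 and 2.09 for Ly6e. Axin2 and Id3 had not passed the test within the Endothelial cells. The difference was 7.59 for Ndrg1, 5.12 for Ndnf, 3.31 for Lims2 and 2.36 for Crip1.

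Among genes better known from neurons, it was 7.39 for Nrn1, 7.04 for Lrp1b, 4.80 for Plppr4, 2.90 for Prox1, 2.33 for Snap25 and 2.48 for Syt1. The value of Plppr4 rests on 1 UMI in the tested perinatal Endothelial sums. The neuronal list summed to 495–1181 CPM at the perinatal and 441–810 CPM at the juvenile ages in the Endothelial cells. The part of transcripts from other cells was not tested.

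Differences below 0 were -6.21 for Trf, -3.75 for Mest, -3.42 for Slc1a4, -2.59 for Cks1b, -2.55 for Cks2, -2.45 for Mdk, -2.38 for Arxes1, -2.06 for Abca1, -1.99 for Fabp5, -1.99 for Lgals1, -1.99 for Cotl1, -1.55 for Ramp2 and -1.50 for Marcksl1. Single ages moved some values by over 1.5 times. Without P23, Trf was at -3.63 (adjusted p = 1). Without P5, Abca1 was at -4.14, Arxes1 at -3.61, Ramp2 at -2.57, Ltbp4 at 6.22, Lims2 at 7.81 (0.381) and Ndnf at 8.604 (1). Without P19, Id3 was at 4.34. None of the 34 genes kept its call under every alternative, and P23 and P5 were the ages whose absence ended most of them: 13 and 18 of the 34 calls remained.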

How the results depend on the processing

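The stage test called 724 genes, 482 with DESeq2, 223 with cells thinned to 1000 UMIs and 389 to 781 without single ages. In mural-poor cells, an alternative chosen after seeing the data, it called 416. Fewer UMIs or cells enter the thinned and mural-poor fits. The difference of changes called 282 genes, 39 with thinned cells, 504 against Immature-GC alone, 47 against OPC alone and 73 to 345 without single ages; the cause was not tested. Without the replicate block of age it called 91. Among the non-neural clusters the gain in Endothelial share was 36.4 points, a change of denominator. The share of cells with both sets of genes turned to 16.2 points when thinned. Genes that did not pass the stage test also changed sign: Axin2 ran from -0.28 to 0.62 without single ages, Cav1 from -0.031 to 0.31 (-0.11 thinned), Rgs5 from -0.082 to 1.09, and Vtn from -0.34 to 1.06 (-1.37 in mural-poor cells), while Pdgfrb was 0.064 thinned. In the difference of changes, Fabp5 was 0.073 in mural-poor cells and Lgals1 ran from -3.31 to 0.74 without single ages. No named gene called in the stage test changed sign under any alternative that tested it. P0, with 17 cells, and P120, with 1, did not enter the stage test.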
